A study of Mus musculus with 141 samples.

Results

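The 10 genes described here are parts of the Hippo pathway and genes that its effector YAP switches on, and they were chosen by name from the 17136 genes of the count table. *Yap1*, *Wwtr1* (which encodes TAZ) and *Tead1* are the effectors, *Lats2*, *Amot*, *Amotl2* and *Ajuba* are regulators upstream of them, and *Ctgf*, *Cyr61* and *Ankrd1* are target genes. The counts come from single epithelial cells of the lungs of 1 male *ACID;R26tdTomato* mouse, 4 months old, labelled as strain 129SV and given as 129S6/SvEvTac in the methods of the study. It was heterozygous for both alleles, Cre made from the *Aqp5* locus and the Cre-dependent reporter, which turns on tdTomato in cells with past or present *Aqp5* expression, although not in each of them. Cells positive for tdTomato and E-cadherin and negative for CD31 and CD45 were sorted and captured at separate sites of a Fluidigm C1 chip, and no untreated or second group was part of the design. The cells are 1 sample of 1 animal, so differences were not tested, and intervals below cover counting error only.

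A share of mitochondrial reads below 0.15 was found in 92 cells, which were kept, and the other 49 were left out. The type 1 class held the 45 kept cells with at least 5000 CPM (reads of a gene per 1000000 reads of the cell) of *Ager*, a membrane receptor typical of flat alveolar type 1 cells. The type 2 class held the 11 cells with at least 8000 CPM of *Sftpc*, a surfactant protein of alveolar type 2 cells, and the other 36 cells are called the rest. No kept cell passed both thresholds. The lowest *Ager* level inside the type 1 class was 9335 CPM and the highest outside it 1402 CPM, and for *Sftpc* these levels were 25437 and 7774 CPM. Although the labels call all cells alveolar type 1, their markers split them into these classes. All 45 type 1 cells had at least 50% of 15 other type 1 markers above 100 CPM, and *Hopx* led the list with 5733 CPM in the class and 156 CPM in the rest. Of the 11 type 2 cells, 10 met the same rule for 12 type 2 markers. The rest was mixed, with 13 cells high in a club list, 13 in a ciliated list, 3 in a basal list and 1 each in a fibroblast, a mesothelial and the type 2 list. The rest cell high in the type 2 list had 4947 CPM of *Sftpc* and was 1 of 3 rest cells with at least 4000 CPM. Median depth was 468718 reads per cell in type 1, 413806 in type 2 and 693389 in the rest cells, with 2746, 2878 and 3297.5 detected genes.

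In the Hippo pathway a kinase chain that ends in LATS1 and LATS2 phosphorylates YAP and TAZ and keeps them out of the nucleus. When the kinases are quiet, for instance in stretched or spread cells, YAP and TAZ enter the nucleus, bind TEAD proteins on DNA and raise genes such as *Ctgf*, *Cyr61* and *Ankrd1*. In the lung the pathway is known for its part in the growth of alveolar cells and in the flat shape and identity of type 1 cells, and much of its control is on the proteins, which RNA counts do not show.

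*Tead1*, *Amotl2*, *Cyr61*, *Wwtr1*, *Lats2*, *Ajuba*, *Ankrd1* and *Ctgf* had higher class levels in type 1 than in type 2 cells, while *Yap1* was at about the same level in both. A class level is the CPM of the summed counts of its cells, and a gene was counted as higher or lower where class levels differed at least 2-fold. Of the 9 members that averaged 5 CPM or more over the kept cells, 8 were higher in type 1 than in type 2 cells and 0 were lower, with a median log2 ratio of 7.71. Among all 9926 genes compared in that way, 51.7% were higher in type 1 cells and 23.1% lower, with a median log2 ratio of 1.16, so the whole scale leaned towards type 1. Set against that median, 8 members still lay at least 2-fold above it, as did 41.4% of all genes. No member lay as far below it, beside 38.5% of all genes. With the mitochondrial genes and the 50 most abundant genes left out of the library size the median of all genes was 0.83.

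Against the rest cells, 6 of the 9 members were higher in type 1 cells (*Ankrd1*, *Lats2*, *Tead1*, *Amotl2*, *Wwtr1* and *Ajuba*), 1 was lower (*Ctgf*) and *Yap1* and *Cyr61* lay between. Their median log2 ratio was 2.50. Of 10525 genes compared, 33.9% were higher and 33.4% lower in type 1 cells, with a median log2 ratio of 0.05. The tenth gene, *Amot*, had a mean of only 0.121 CPM and is described on its own below.

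**Figure D1:**
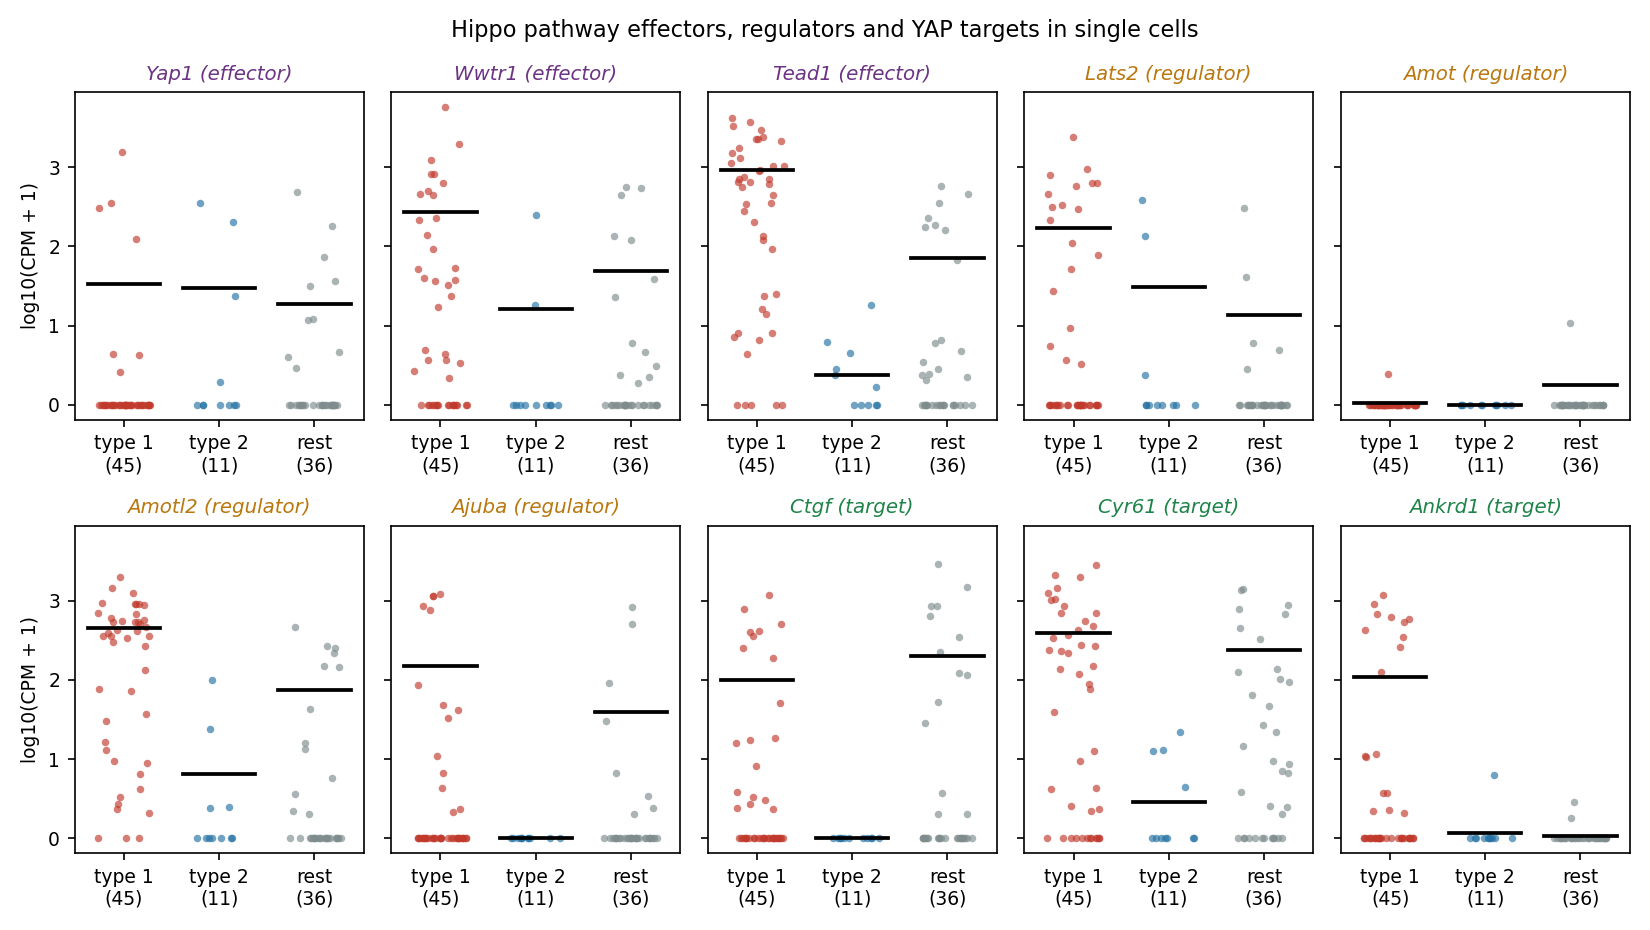
Each point is 1 kept cell, on a vertical axis of log10(CPM + 1), for the 45 type 1, 11 type 2 and 36 rest cells, and black bars are class levels from summed counts. *Tead1* and *Amotl2* fill the upper range in most type 1 cells, *Ankrd1* stays near 0 outside type 1, and *Ctgf* reaches its highest values in rest cells.

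*Tead1*, the DNA-binding partner of YAP and TAZ (chr7:112679318-112906807, plus strand, GRCm38), was the member that reached 100 CPM in the largest number of type 1 cells. Its level across the 45 type 1 cells ran from 0 to 4252 CPM with a median of 558 CPM, and 40 cells had a read. In the 11 type 2 cells the median was 0.674 CPM and the highest value 17.2 CPM, and in the 36 rest cells the median was 0 and the highest value 576 CPM. Thus 30 type 1 cells, no type 2 cell and 7 rest cells reached 100 CPM. Type 1 values overlapped those of the rest up to 576 CPM and those of type 2 up to 17.2 CPM. The class levels were 912 CPM (exact Poisson 95% interval 900.0 to 925) in type 1, 1.39 CPM (0.635 to 2.64) in type 2 and 70.1 CPM (66.98 to 73.3) in the rest. These give log2 ratios of 9.36 over type 2, resting on 9 type 2 reads, and 3.70 over the rest. The 16 type 2 cells that the mitochondrial filter removed had *Tead1* at 50.9 CPM, with a read in 10 of them but 74.6% of the reads in 1, without which the level was 13.9 CPM, and with all deposited cells the ratio over type 2 was 5.41. After each cell was thinned to 90000 reads, 36 type 1, 1 type 2 and 8 rest cells had a *Tead1* read.

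*Wwtr1* encodes TAZ, the paralogue of YAP (chr3:57455649-57575910, minus strand). Its values ran from 0 to 5807 CPM in type 1 cells with a median of 3.39 CPM, from 0 to 248 CPM in type 2 cells and from 0 to 562 CPM in the rest, both with a median of 0. High values were found in a part of each class, as 12 type 1, 1 type 2 and 5 rest cells reached 100 CPM, and the classes overlapped up to 562 CPM. The class levels were 273 CPM (266 to 279.7) in type 1, 15.4 CPM (12.6 to 18.8) in type 2 and 48.1 CPM (45.6 to 50.8) in the rest. In type 1 cells 32.9% of the reads came from 1 cell, without which the level was 186 CPM. In type 2 cells 94 of the 100 reads came from 1 cell, without which it was 0.984 CPM, and in the rest 43.8%, without which it was 28.4 CPM. Over type 2 the log2 ratio was 4.14, with 1.61 in the first 10 chip columns. In the last 10, against 0 type 2 reads set to the floor of 3 counts, it was at least 9.23 (exact interval from 8.93). Over the rest it was 2.50, and it was 0.62 among cells in the first 10 chip columns and 5.61 among those in the last 10.

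*Yap1* itself (chr9:7931999-8004596, minus strand) was read in few cells of any class. A read was found in 7 of 45 type 1, 4 of 11 type 2 and 10 of 36 rest cells, the median was 0 in each class, and the highest values were 1581, 359 and 484 CPM. Only 4 type 1, 2 type 2 and 2 rest cells reached 100 CPM, so the ranges overlapped almost completely. The class levels were 32.7 CPM (30.4 to 35.1), 28.6 CPM (24.6 to 32.99) and 17.7 CPM (16.2 to 19.4), with 38.04%, 56.2% and 45.6% of the reads in 1 cell each. Without those cells the levels were 20.4, 13.1 and 9.81 CPM. At a mitochondrial maximum of 0.10, where type 1 cells had 2 reads, the log2 ratio of type 1 over type 2 went from 0.20 to -8.12 (-11.18 to -6.25). In chip columns 11 to 20, with 4 type 2 reads, it was 5.97, so the direction for *Yap1* changed with the cells used. Over the rest the log2 ratio was 0.88, and on the same 2 reads it was -5.78 (-8.83 to -3.90). It passed the 2-fold limit at 1.06 with the top cell of each class left out and at 1.18 as a ratio of the means of single cells. In chip columns 11 to 20 it was 1.01.

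Among the regulators, *Amotl2* was the most widely read. It encodes a member of the motin family, scaffolds at cell junctions that hold YAP and TAZ in the cytoplasm, and it is itself known as a YAP target (chr9:102716672-102733418, plus strand). Across type 1 cells its values ran from 0 to 2023 CPM with a median of 361 CPM. The type 2 cells had a median of 0 and a highest value just at 100 CPM, and the rest cells a median of 0 and a highest value of 465 CPM. All but 3 type 1 cells had a read, and 28 type 1, 1 type 2 and 6 rest cells reached 100 CPM. Class levels were 447 CPM (439 to 456) in type 1, 5.40 CPM (3.76 to 7.52) in type 2 and 74.6 CPM (71.4 to 77.9) in the rest, for log2 ratios of 6.37 and 2.58. In type 2 cells 82.9% of the reads came from 1 cell, and with the top cell of each class left out the ratio over type 2 was 8.72. It was 2.83 at a *Sftpc* minimum of 4000 CPM, and the removed type 2 cells had *Amotl2* at 62.3 CPM, with 98.2% of the reads in 1 cell and 1.24 CPM without it. Over the rest the ratio was 8.75 in the last 10 chip columns, on 8 rest reads. The 6 rest cells were 3 of the club list, the fibroblast list cell, the mesothelial list cell and 1 cell high in no list.

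*Lats2*, a kinase that phosphorylates YAP and TAZ and also a known YAP target (chr14:57689662-57758388, minus strand), was read in a part of the type 1 cells. Its values ran from 0 to 2384 CPM there, with a median of 0 and a read in 19 of 45 cells. It reached 383 CPM in the highest type 2 cell and 304 CPM in the highest rest cell. A level of 100 CPM was passed in 12 type 1, 2 type 2 and 1 rest cells. The class levels were 172 CPM (166 to 177), 29.6 CPM (25.6 to 34.1) and 12.5 CPM (11.2 to 13.9), for log2 ratios of 2.53 over type 2 and 3.78 over the rest. A single type 2 cell held 75.5% of the type 2 reads, a single club list cell held 89.97% of the rest reads, and with the top cell of each class left out the ratio over the rest was 6.76 and that over type 2 was 4.20. The ratio over type 2 was 1.01 in the first 10 chip columns and, on 1 type 2 read, 9.64 (7.16 to 14.9) in the last 10. The pseudogene *Gm20430* overlaps *Lats2* on the other strand and is in the count table. *Gm49361*, on the strand of *Lats2*, overlaps it too and is not in the table. The strand setting of the counting is not given in the sources used here, and overlap of exons was not checked. Whether reads of these genes were mixed is thus not known.

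*Ajuba* encodes a LIM protein that binds LATS kinases at junctions and holds them back (chr14:54567472-54577558, minus strand). It had 0 reads in type 2 cells. In type 1 cells the values ran from 0 to 1216 CPM with a median of 0, and in the rest from 0 to 846 CPM, also with a median of 0. The reads sat in few cells, as 5 type 1 and 2 rest cells reached 100 CPM, and the median of the 5 was 1136 CPM. Class levels were 148 CPM (143 to 153) in type 1 and 38.7 CPM (36.4 to 41.2) in the rest, a log2 ratio of 1.93. A single rest cell held 65.6% of the rest reads, and with the top cell of each class left out the ratio was 3.05. Against the 0 reads of type 2, with a floor of 3 counts over the class, *Ajuba* was at least 319-fold higher in type 1 cells. *Amot*, the founding motin, was almost unread, with 1 read in type 1 cells, 0 in type 2 cells and 21 reads in 1 rest cell and no cell above 10 CPM.

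The 3 targets differed from each other in where they were found. *Cyr61* encodes a secreted matricellular protein of the CCN family (chr3:145646976-145649981, minus strand). In type 1 cells it ran from 0 to 2877 CPM with a median of 117.3 CPM, and 23 of 45 cells reached 100 CPM. In the rest it ran from 0 to 1431 CPM with a median of 6.86 CPM, and 10 of 36 cells reached 100 CPM. The highest type 2 cell was at 20.9965 CPM. The class levels were 388 CPM (380.2 to 396) in type 1, 1.85 CPM (0.957 to 3.24) in type 2 and 241 CPM (235 to 247) in the rest. The log2 ratio over type 2 was 7.71, on 12 type 2 reads. It was 3.22 with all deposited cells, as the 16 removed type 2 cells had *Cyr61* at 92.98 CPM, or 38.8 CPM without the 1 cell that held 60.1% of the reads. Over the rest it was 0.69, under the 2-fold limit, and 1.14 as a ratio of the means of single cells. It also passed the limit at a mitochondrial maximum of 0.10 (1.17) and in chip columns 11 to 20 (1.07), and was 0.31 in columns 1 to 10. Its side of the limit stayed the same in 11 of 17 alternatives.

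*Ctgf*, another secreted CCN protein (chr10:24595442-24598683, plus strand), was the target with a higher class level in the rest. It ran from 0 to 1178 CPM in type 1 cells and from 0 to 2957 CPM in rest cells, with a median of 0 in both, and had 0 reads in type 2 cells. A level of 100 CPM was reached in 8 type 1 and 9 rest cells. Class levels were 98.6 CPM (94.6 to 102.7) in type 1 and 202 CPM (196 to 207) in the rest, so *Ctgf* was 2.05-fold lower in type 1 cells. One rest cell held 44.1% of the rest reads and 1 type 1 cell 28.7% of the type 1 reads, and without both the log2 ratio went from -1.03 to -0.67, inside the 2-fold limit. Against the floor of 3 counts in type 2 cells, *Ctgf* was at least 213-fold higher in type 1 cells, a log2 ratio of at least 7.73. The lower end of the exact conditional 95% interval was 7.43, and with the top cell of each class left out the bound was 7.13. The antisense transcript *Gm15270* overlaps it and is also counted.

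*Ankrd1*, an ankyrin repeat protein of the nucleus and of muscle sarcomeres (chr19:36111961-36120099, minus strand), was the target with nearly all of its reads in type 1 cells, although in a part of them. Its values ran from 0 to 1192 CPM in type 1 cells with a median of 0, and 18 of 45 cells had a read. The only type 2 cell with a read was at 5.25 CPM, and the 2 rest cells with a read stayed at or under 1.90 CPM. Thus all 10 cells at or above 100 CPM were type 1 cells. The class level was 107.6 CPM (103.4 to 111.9) in type 1, from 2488 reads, beside 1 read in type 2 and 2 reads in the rest. As counts this small allow no firm fold, the ratio over the rest was 1455 with a counting interval of 402 to 12018, and that over type 2 was 697 with an interval of 124.9 to 27529. In type 1 cells 32.9% of the reads came from 1 cell, without which the level was 75.1 CPM.

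**Figure D2:**
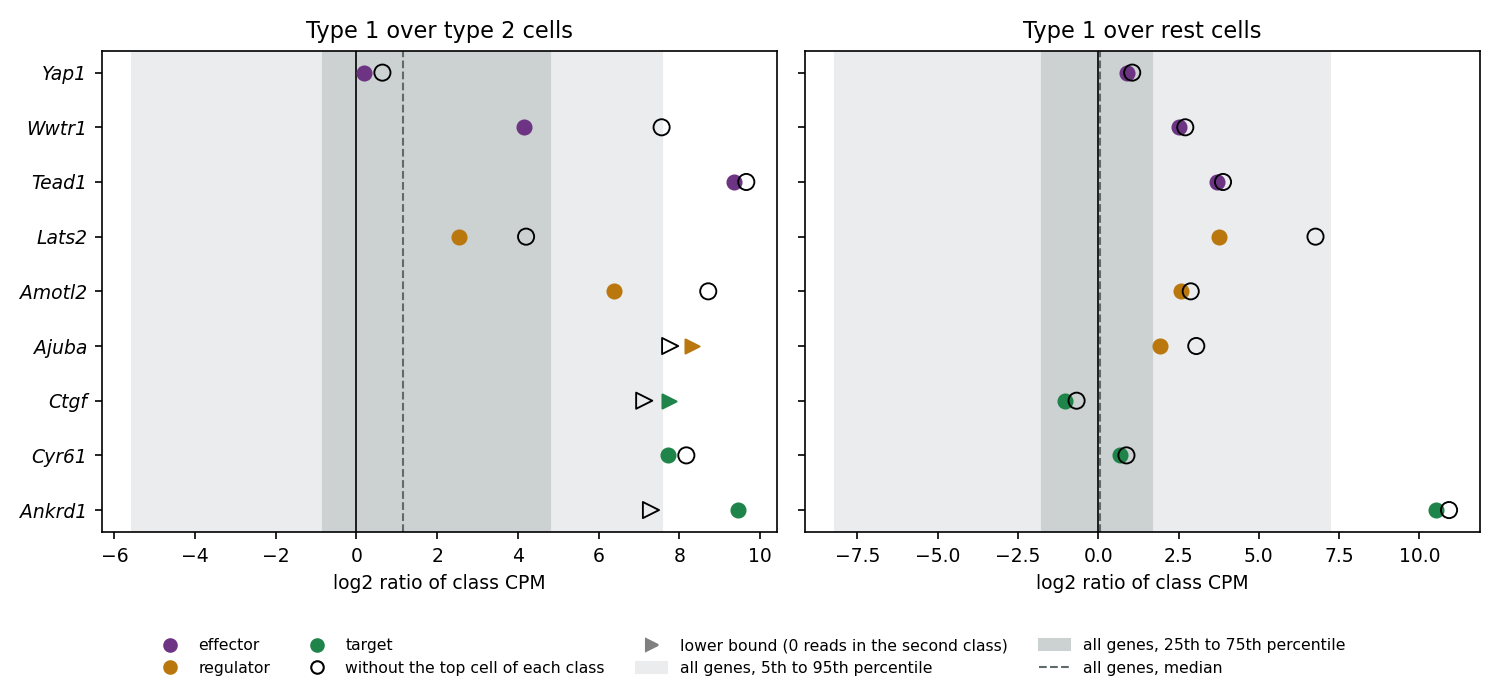
Filled marks are log2 ratios of class CPM for 9 members, type 1 over type 2 on the left and type 1 over rest on the right, and open marks are the same without the cell with the most reads in each class. Triangles are lower bounds, the *Ankrd1* marks rest on at most 2 reads outside type 1, and grey bands show all genes compared, whose median is 1.16 on the left and 0.05 on the right.

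CCN genes are also known from fibroblasts and endothelium, so markers of those cells were read beside them. In type 1 cells the 9 endothelial markers of the table summed to 0.476 CPM, of which *Pecam1* made 0.432, and *Kdr*, *Tek*, *Tie1*, *Cldn5*, *Egfl7*, *Ramp2* and *Calcrl* were at 0. The 10 fibroblast markers summed to 1.30 CPM there, led by *Dcn* at 0.994 CPM, with *Col1a2*, *Fn1* and *Tcf21* at 0. In the rest the fibroblast markers summed to 1117 CPM, led by *Dcn* at 692 CPM, and the mesothelial markers to 344 CPM, led by *Msln* at 138.02 CPM. The fibroblast list cell had 1351 CPM of *Cyr61* and 225 CPM of *Ctgf*, and the mesothelial list cell 448 and 27.7 CPM. Leaving both cells out of the rest took the log2 ratio of *Cyr61*, type 1 over rest, from 0.69 to 1.21.

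The high *Ctgf* values of the rest lay in cells with *Krt5*, a keratin of airway basal cells. A group of 9 rest cells had at least 10 CPM of *Krt5*, from 11.8 to 786 CPM, while the highest value in the other 27 was 7.04 CPM. This split was made after the *Ctgf* values had been seen, so it is a description. Of 9 basal markers in the table, the 9 cells had between 2 and 7 at or above 10 CPM and the other rest cells at most 2, but only 3 of the 9 cells met the rule for being high in the basal list and 2 were high in the club list. *Trp63*, a transcription factor of basal cells, reached 10 CPM in 6 of the 9 cells. *Krt15* did so in 8 of them and also in 4 of the other 27, with a highest value of 1721 CPM there. All 9 had *Ctgf* reads, with a lowest value of 52.2, a median of 645 and a highest value of 2957 CPM. Elsewhere in the rest the highest value was the 225 CPM of the fibroblast list cell, the 12 ciliated list cells had 0 reads, and the 11 club list cells had 6 reads in all. The class level was 800.3 CPM (778.5 to 823) in the *Krt5* cells, 16.9 CPM in the other rest cells and 98.6 CPM in type 1 cells. A single cell held 47.1% of the reads of the *Krt5* cells, without which their level was 485 CPM, and the fibroblast list cell held 88.3% of those of the other rest cells, without which theirs was 2.13 CPM. Of the fibroblast markers, *Dcn* was at 2398 CPM in the *Krt5* cells and read in all 9, *Fn1* was at 29.002 CPM with 98.4% of the reads in 1 cell, *Col1a1* and *Col1a2* had 1 read each, and *Col3a1*, *Col6a1*, *Col6a3*, *Pdgfra*, *Vim* and *Tcf21* were at 0 in them.

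The other members had different levels in the *Krt5* cells. *Cyr61* was at 378 CPM there and 388 CPM in type 1 cells, but 1 of the 9 cells held 66.7% of the reads. Without the top cell of each group the levels were 153 and 334 CPM. *Ankrd1* had 0 reads in them, *Lats2* had 1 and *Amotl2* had 10. *Tead1* was at 23.99 CPM, all but 4 of its 153 reads in 1 cell. *Ajuba* was at 122.4 CPM, with 88.1% of the reads in 1 cell. Without the *Krt5* cells in the rest, the log2 ratio of *Ctgf*, type 1 over rest, turned from -1.03 to 2.54.

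**Figure D3:**
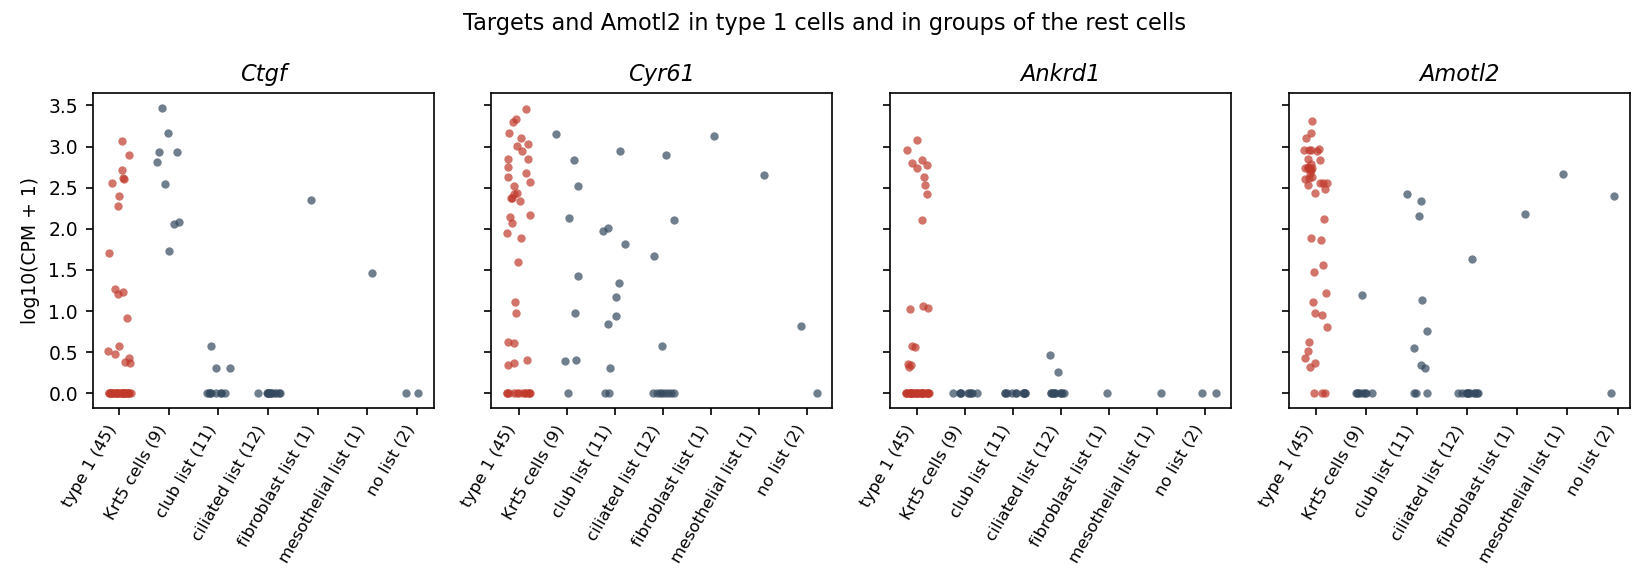
Points are single cells, on a vertical axis of log10(CPM + 1), for the 45 type 1 cells and for groups of the 36 rest cells, with the number of cells in parentheses. *Ctgf* is read in all 9 *Krt5* cells, *Cyr61* is spread over all groups with more than 2 cells, *Ankrd1* is high in type 1 cells alone, and *Amotl2* is read in 1 of the 9 *Krt5* cells.

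To show the sequence next to the start sites of members that were higher in type 1 cells, the RefSeq promoter windows (250 bases before to 50 after a start site, GRCm38.p6) were searched for the core TEAD site GGAATG on both strands, that is also as CATTCC. Windows were at hand for 8 of the 10 members, *Ctgf* and *Tead1* not among them, and 7 of the 8 held the site in at least 1 window, beside 16.6% of all 27025 genes. By window it was 8 of 10, beside 14.7% of all 32851 windows, as *Wwtr1* held it in both of its windows and *Lats2* in 1 of 2. The windows of *Wwtr1* overlap and share the same 1 site, so the 8 count it more than once. *Ankrd1* and *Ajuba* held it 2 times, as did 1.36% of all windows, and *Amot* did not hold it. The first site of *Ankrd1* began 210 bases before the start site, those of *Ajuba* 186 and 164 and that of *Amotl2* 65. *Cyr61*, *Yap1* and *Wwtr1* also held 1 site before the start, and that of *Lats2* lay just after it. The 250 bases before the start site are given 5′ to 3′ on the strand of the gene for the pair of targets with a window and the pair of regulators most unlike in type 1 and type 2 cells, with the site in capitals. *Ankrd1* is shown from chr19:36119845-36120094 (minus strand), *Cyr61* from chr3:145649986-145650235 (minus strand), *Amotl2* from chr9:102717554-102717803 (plus strand) and *Ajuba* from chr14:54577662-54577911 (minus strand). The start sites are those of RefSeq. By the GENCODE positions given further above, the *Ankrd1* and *Amotl2* stretches lie inside the gene and the *Cyr61* and *Ajuba* stretches outside it.
Ankrd1: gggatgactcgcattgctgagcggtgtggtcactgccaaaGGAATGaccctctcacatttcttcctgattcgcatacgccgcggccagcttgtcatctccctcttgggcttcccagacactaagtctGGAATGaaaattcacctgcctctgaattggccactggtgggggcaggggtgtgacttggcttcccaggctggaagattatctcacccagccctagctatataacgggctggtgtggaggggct
Cyr61: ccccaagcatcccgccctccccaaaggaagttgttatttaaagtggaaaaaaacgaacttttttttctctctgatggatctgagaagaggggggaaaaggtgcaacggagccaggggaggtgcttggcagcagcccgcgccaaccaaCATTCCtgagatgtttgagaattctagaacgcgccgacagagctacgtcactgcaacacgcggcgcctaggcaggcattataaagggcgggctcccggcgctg
Amotl2: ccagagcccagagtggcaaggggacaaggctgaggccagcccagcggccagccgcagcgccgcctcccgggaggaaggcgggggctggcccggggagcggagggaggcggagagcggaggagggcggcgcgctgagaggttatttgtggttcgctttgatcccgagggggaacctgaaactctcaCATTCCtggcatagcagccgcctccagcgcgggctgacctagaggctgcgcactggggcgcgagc
Ajuba: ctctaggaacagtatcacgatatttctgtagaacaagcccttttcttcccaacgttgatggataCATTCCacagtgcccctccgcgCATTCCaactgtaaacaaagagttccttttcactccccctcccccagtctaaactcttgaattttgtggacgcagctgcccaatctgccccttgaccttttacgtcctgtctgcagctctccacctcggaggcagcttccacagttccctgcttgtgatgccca
A match is a description of these letters, and binding was not measured.

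Within the type 1 class the members did not rise and fall together. Each type 1 cell had between 1 and 6 members at or above 100 CPM, with a median of 3, while 8 of 11 type 2 cells and 13 of 36 rest cells had none. Of the targets, 17 type 1 cells had none at that level, 17 had 1, 9 had 2 and 2 had all 3. *Cyr61* made most of the sum, with *Ctgf* and *Cyr61* together at that level in 6 cells, *Cyr61* and *Ankrd1* in 7, and *Ctgf* and *Ankrd1* in 2. The summed targets ran from 0 to 2887 CPM with a median of 337 CPM, and the summed effectors from 0 to 5813 CPM with a median of 674 CPM. Across the 45 cells the rank correlation (Spearman's rho) of summed effectors and summed targets was 0.10, and that of summed regulators and summed targets was 0.06. Over the 36 pairs of the 9 members, rho ran from -0.28 (*Amotl2* and *Ajuba*) to 0.26 (*Amotl2* and *Ctgf*), and 0 pairs passed 0.3 in either direction. These correlations come from cells of 1 mouse and 1 chip with many values at 0, so they describe these cells only.

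The weak relation of effectors and targets was not the same in all type 1 cells. Among the 19 cells with a mitochondrial share below 0.10 rho was 0.58, and among the 26 cells from 0.10 to 0.15 it was -0.41. In the first 10 columns of the chip it was -0.01, and in the last 10 it was 0.20. Counts of cells differed by pair of genes. Of the 30 type 1 cells with at least 100 CPM of *Tead1*, 15 had as much *Cyr61*, 5 as much *Ctgf* and 4 as much *Ankrd1*. Of the 12 with as much *Wwtr1*, 7 had *Cyr61*, 1 *Ctgf* and 6 *Ankrd1*. Over all 45 type 1 cells, 23 had as much *Cyr61*, 8 *Ctgf* and 10 *Ankrd1*. The share with *Ankrd1* was thus larger in the *Wwtr1* cells (6 of 12) than in the class (10 of 45), which includes them. The rho of *Wwtr1* and *Ankrd1* over the class was only 0.09. In chip column 7 the type 1 cells had 623, 691, 0, 344 and 593 CPM of *Ankrd1*, and the part of the chip column was not tested. The sum of effectors is mostly *Tead1* (rho of 0.78 with the sum), as the sum of targets is mostly *Cyr61* (rho of 0.81). The rank correlation of summed targets with total reads was -0.09, with detected genes 0.18 and with the mitochondrial share -0.31, and their part in the values above was not tested.

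**Figure D4:**
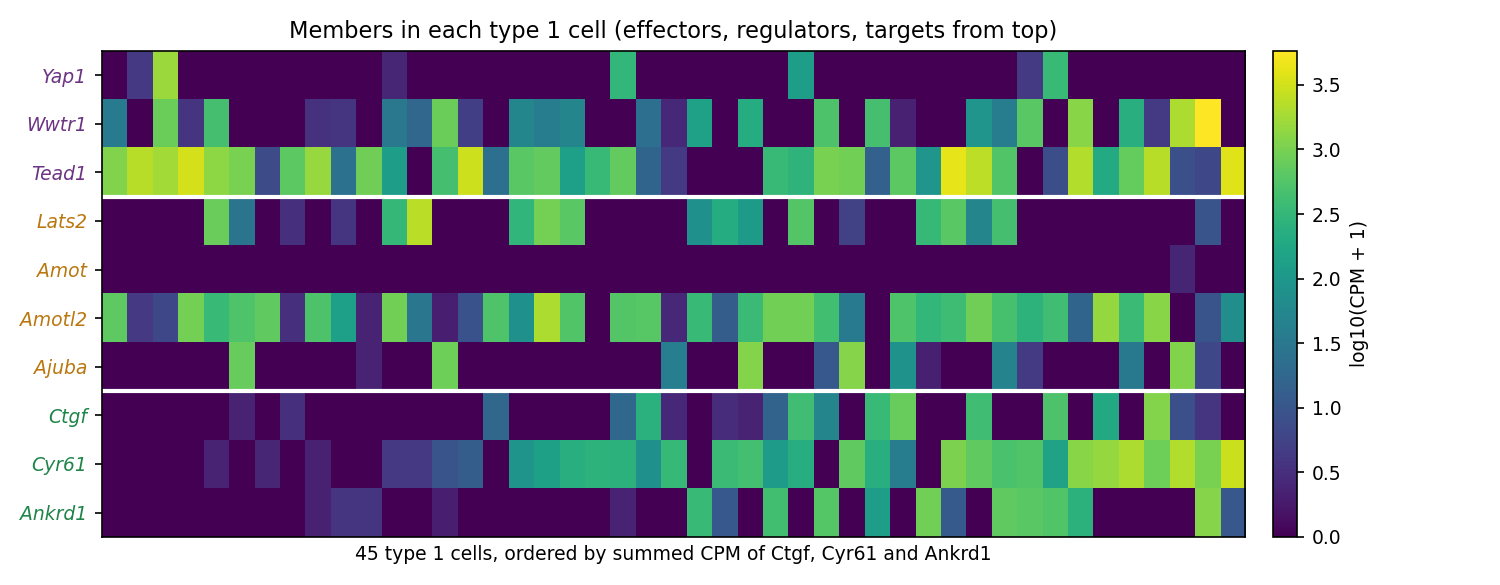
Columns are the 45 type 1 cells in order of summed CPM of *Ctgf*, *Cyr61* and *Ankrd1*, rows are the 10 genes by role, and colour is log10(CPM + 1). *Tead1* reaches 100 CPM in 30 cells and *Amotl2* in 28, among cells with low and with high target sums, and both are dark in 2 of the 3 cells with the largest sums, which go up to 2887 CPM.

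Over the 45 type 1 cells summed targets had a higher rank correlation with a list of immediate early and dissociation genes than with effectors. The list, called the immediate early list here, holds genes that cells switch on within minutes of stimulation or during tissue dissociation. Its 18 genes include the heat shock genes *Hspa1a*, *Hspa1b*, *Dnajb1* and *Hspa8* and none of the members. Its sum ran from 908 to 11997 CPM across type 1 cells, with a median of 3566 CPM, and its rho with summed targets was 0.61. *Cyr61*, which is known to act as an immediate early gene, had 0.61, *Ankrd1* 0.40 and *Ctgf* 0.04. In the first 10 chip columns *Cyr61* had 0.48, *Ankrd1* 0.21 and *Ctgf* -0.23, and in the last 10 they had 0.78, 0.69 and 0.39. Over the 36 rest cells, which are a mix of cell types, the rho of *Ctgf* with the list was 0.70. It was 0.30 within the 9 *Krt5* cells and 0.47 within the other 27, or 0.38 without the fibroblast list cell. The *Krt5* cells, where *Ctgf* was high, also had a higher median sum of the list than the other 27 (14079 against 5565 CPM). For the summed targets rho was 0.46 in the first 10 chip columns, 0.79 in the last 10, 0.58 below a mitochondrial share of 0.10 and 0.49 above it. Below 0.10 the effectors gave the same 0.58, so the 2 correlations did not differ there. The mitochondrial share had a rho of -0.45 with the sum of the list and of -0.42 with *Cyr61* in the 45 type 1 cells, and its part in these correlations was not tested. By the fixed ranking of 761 widely read genes, *Mtcl1* (rho of 0.53), *Sqstm1* (0.45), *Fads3* (0.44), *Dusp1* (0.43) and *Jund* (0.42) were most like the summed targets across the 45 cells, and *Dusp1* and *Jund* belong to the immediate early list. *Ppp3ca* (0.40), *Spop* (0.39), *Limch1* (0.37), *Arhgef26* (0.37) and *Rbms1* (0.37) were most like the summed effectors. Against the rest the genes of this list went the other way from most members. Of the 18, 12 were lower in type 1 cells and 1 was higher, with a median log2 ratio of -2.04. The heat shock genes *Hspa1a*, *Hspa1b* and *Dnajb1* were among the 12. Among all genes 33.4% were lower and 33.9% higher. Against type 2 cells 7 of the 18 were lower, 3 higher and 8 within 2-fold, with a median log2 ratio of -0.66. Among all genes 23.1% were lower and 51.7% higher in that comparison. *Egr1*, an early transcription factor, was at 1.99 CPM in type 1 and 635 CPM in rest cells, *Atf3* at 60.8 and 812 CPM (1.14 and 36.1 CPM in type 1 without the cell with the most reads), and *Ier3* at 676 and 118.1 CPM. The share of these genes in the differences of the members between classes was not tested.

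**Figure D5:**
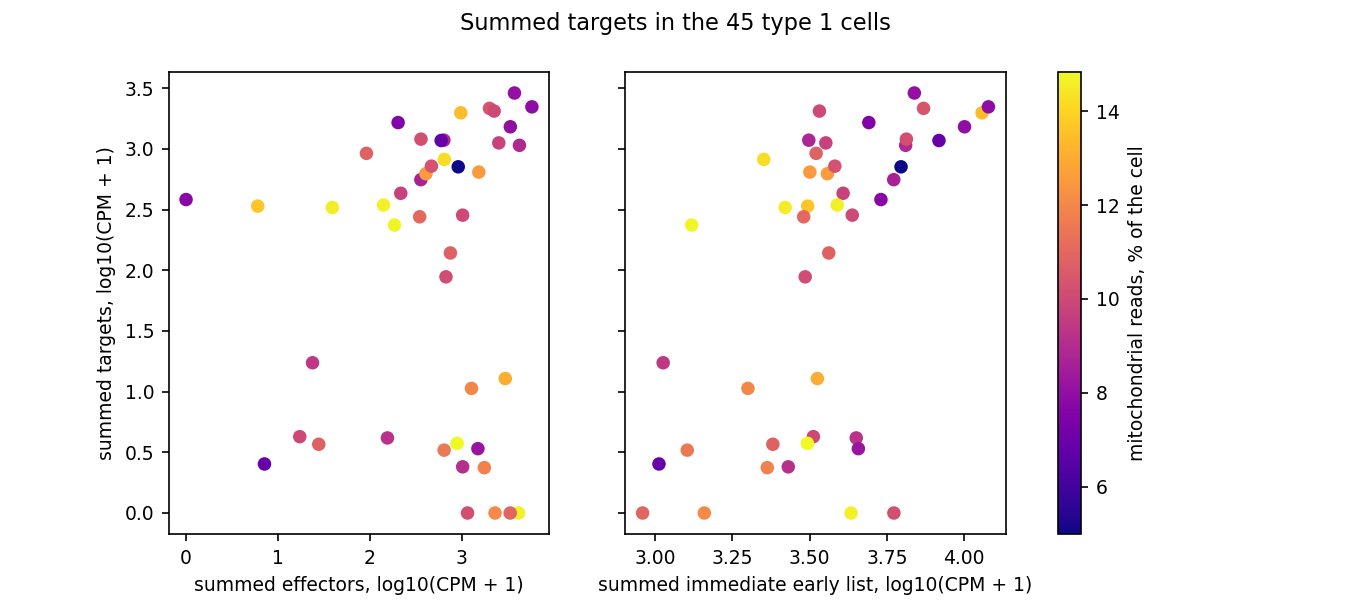
Points are the 45 type 1 cells, with summed targets on the vertical axis against summed effectors on the left and the summed immediate early list on the right, all as log10(CPM + 1), coloured by the mitochondrial share of reads in percent. Cells with no or few target reads span nearly the whole range of effectors, with a rho of 0.10 on the left and 0.61 on the right.

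Lists of pathway genes, which also hold some of the members, gave the setting. Many of their reads lay in single cells, so where the cell with the most reads changed the level of a class by over 1.5 times, the level without it follows in brackets. Their counts stand beside all genes, of which 33.9% were higher and 33.4% lower in type 1 than in rest cells, and 51.7% and 23.1% against type 2 cells. Of 14 genes of the kinase cascade, 7 were higher and 3 lower in type 1 than in rest cells, with a median log2 ratio of 0.80, and 8 and 3 against type 2 cells, which is close to the share of all genes. *Wwc1*, a scaffold also called KIBRA, was at 667 CPM in type 1, 169 CPM [109.3] in type 2 and 112.1 CPM in rest cells, and its paralogue *Wwc2* at 358, 2.93 [0.820] and 51.6 CPM. *Taok2*, a kinase at the top of the cascade, was at 87.5 [55.7], 0.926 and 7.14 [2.39] CPM. *Sav1*, the adaptor of the MST kinases, was at 1.08 [0.438], 1.24 [0.476] and 28.5 [13.7] CPM, and *Nf2* (merlin) at 2.51 [0.659], 30.3 [1.67] and 23.7 [10.2] CPM. *Map4k4* was at 4.02 [2.32] CPM in type 1 and 21.8 [0.450] CPM in rest cells, and with the top cell of each class left out its log2 ratio turned from -2.44 to 2.37. *Stk3*, an MST kinase, was at 24.5 [10.95] and 47.99 CPM, and its log2 ratio went from -0.97 to -1.59 in the same way.

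Among 15 regulators at junctions and of polarity that averaged 5 CPM or more, 10 were higher and 2 lower in type 1 than in rest cells, and 11 and 1 against type 2 cells, *Amotl2* and *Ajuba* among them. *Mpp5* (PALS1), a polarity scaffold, was at 475 CPM in type 1, 11.3 [0.521] CPM in type 2 and 7.25 [0.380] CPM in rest cells, with reads in 37 of the 45 type 1 cells. *Frmd6* (willin) was at 78.2 [41.1], 13.9 [1.40] and 0.702 [0.189] CPM. *Llgl1*, another polarity gene, was at 35.8 [20.04] CPM in type 1 cells, with reads in 6 of them, and had 0 reads in the rest. *Limd1*, a relative of *Ajuba*, was at 11.4 [5.39] and 66.8 [30.4] CPM, while *Ptpn14* at 89.6 [58.5] and 60.6 CPM lay within 2-fold. For *Pard3*, at 29.3 [8.97] and 59.8 [12.1] CPM, and *Amotl1*, at 52.3 and 50.5 [16.7] CPM, the call rested on single cells. With the top cell of each class left out, the log2 ratio of *Pard3* over the rest went from -1.03 to -0.43 and that of *Amotl1* from 0.05 to 1.15. Of the 7 genes of the YAP, TAZ, TEAD and VGLL family with that mean, 5 were higher in type 1 than in rest cells and 0 lower, and 4 and 1 against type 2 cells, where 51.7% of all genes were higher and 23.1% lower, so the count against type 2 was near that of all genes. *Tead4* was at 68.4 CPM in type 1 and 8.39 [2.68] CPM in rest cells with 0 reads in type 2, but in 6 type 1 cells only. *Tead3* was at 24.3 [10.002], 95.1 [23.1] and 11.02 [6.86] CPM, and *Vgll3* at 10.98 [4.82] CPM in type 1 and 6.88 [0.465] CPM in rest cells, with reads in 2 cells of each. Without the top cells the log2 ratio of *Tead3* over the rest went from 1.14 to 0.54 and that of *Vgll3* from 0.68 to 3.37. *Vgll4*, a repressor that competes with YAP for TEAD, was read in 1 type 1 and 2 type 2 cells and in no rest cell. It is 1 of the 5 counted as higher than in the rest, on 477 reads of that type 1 cell, without which its level was 0. Without the top cells 6 genes of the family could be compared with the rest and 5 were higher. *Yap1* and *Vgll3* were then among them, and *Vgll4* and *Tead3* were not.

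The broader list of YAP and TAZ targets, which includes 5 of the members, was split. Of its 17 genes that averaged 5 CPM or more, 8 were higher and 5 lower in type 1 than in rest cells, with a median log2 ratio of 0.69, and of 16 compared with type 2 cells 10 were higher and 4 lower. *Nt5e*, an ectonucleotidase, was at 538 CPM in type 1, 1.54 [0.635] CPM in type 2 and 12.1 [2.16] CPM in rest cells and was read in 33 type 1 cells. *Tgfb2*, a growth factor, was at 151 CPM in type 1 and 0.739 [0.154] CPM in rest cells with 0 reads in type 2. In contrast, *Axl*, a receptor kinase, was at 0.519 [0.178] CPM in type 1 and 88.9 CPM in rest cells, *Crim1* at 0.735 [0.446] and 66.9 [28.7] CPM and *Gadd45a* at 0.562 [0.0889] and 45.5 [29.3] CPM. *Nuak2* had 2 reads in type 1 cells, 0 in type 2 cells and 1300 in the rest, of which 1 cell held 70.8%. Among all genes 33.9% were higher and 33.4% lower in type 1 than in rest cells. Against type 2 cells the shares were 51.7% and 23.1%, near the 10 higher and 4 lower of 16. With the top cell of each class left out, these became 12 higher and 2 lower, while the counts against the rest stayed at 8 and 5. The log2 ratio of *F3* over type 2 turned from -1.12 to 2.95 in this way, and that of *Crim1* went from -1.21 to -0.09.

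Low values of the members were set beside the chip layout, over all cells, kept or not. Of the values above 0 but under 10 CPM, the share in a chip column in which another cell had at least 100 CPM of the gene was 76.5% for *Wwtr1*, 76.9% for *Lats2* and 68.8% for *Ajuba*, beside 44.6%, 42.9% and 34.9% of their values at 0. The shares were closer for *Cyr61* (91.3% and 88.9%), *Ankrd1* (50% and 45.7%) and *Amotl2* (85.7% and 77.2%). All 16 low values of *Ctgf* lay in such a column, beside 75.8% of its values at 0, and for *Yap1* it was 4 of 8, beside 28.7%. For *Tead1* every column held such a cell and for *Amot* none, so neither has a contrast. The part of this in the low values was not tested, and counts of cells at or above 100 CPM are given above beside counts with a read.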

How the data were processed

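RNA of single sorted cells of 1 mouse was sequenced. The authors used Trim Galore and FastQC on the reads and HISAT2 with GRCm38 for mapping, and deposited raw read counts per gene from featureCounts, with no normalization. Versions, the annotation and the strand setting are not given in the sources used here. No molecular identifiers are stated, so counts are reads after PCR and intervals cover counting error only. Total reads ranged from 91402 to 2170760 per cell with a median of 419970.

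Counts were summed over the cells of each class and given as CPM with exact Poisson 95% intervals. A class at 0 reads allows up to 3 counts, which over a class is 0.13 CPM in type 1, 0.463 CPM in type 2 and 0.111 CPM in the rest. Ratios on 1 to 3 reads have exact conditional intervals. Genes that averaged 5 CPM or more over the 92 kept cells were compared, and a 2-fold difference was counted. Doublets were not called by software. In their place, cells high in 2 marker lists were counted (1 type 1, 1 type 2 and 3 rest cells). Thinning drew 90000 reads per cell without replacement.

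The 10 genes were all named. From each pathway and stress list the genes with the largest and smallest log2 ratio of type 1 to rest were named, up to 4 each way, and for likeness the 5 genes with the highest Spearman's rho. The members and lists were chosen with earlier results of these data known. The *Krt5* split, the scaling shifts and the correlations with the immediate early list were added after values were seen. So were the values of list genes without top cells. The list of YAP and TAZ targets holds *Ctgf*, *Cyr61*, *Ankrd1*, *Amotl2* and *Lats2*, and other lists hold members too. Marker lists covered type 1, type 2, club, basal, ciliated, fibroblast, endothelial, leukocyte, mesothelial, and smooth muscle and pericyte genes. The leukocyte list summed to 9.25 CPM in type 1 cells with *Ptprc* at 0, and the smooth muscle and pericyte list to 0.0865 CPM. Positions are from GENCODE vM21, in which 16112 of the 17136 symbols were found and *Ctgf* and *Cyr61* are named *Ccn2* and *Ccn1*.

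Alternatives changed the mitochondrial maximum, the class thresholds, the weight of cells, the top cells, the library size, the depth, the chip columns, the filter on low values and the cells of the rest. The scripts were tested on simulated data. Python 3.11.15 with numpy 2.4.6, pandas 2.3.3, scipy 1.17.1 and matplotlib 3.10.9 was used.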

Additional observations from a re-analysis of the deposited data

Results flagged for a closer look

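The 19 type 1 cells that the mitochondrial filter removed, which the class levels above leave out, also held reads of the members above the 3 counts that a class at 0 allows. Their class levels were 2.76 CPM for *Yap1*, 169.3 CPM for *Wwtr1* and 915.1 CPM for *Tead1* among the effectors. For the regulators they were 132.6 CPM for *Lats2*, 1.002 CPM for *Amot* (8 reads in 1 cell), 249.6 CPM for *Amotl2* and 141.9 CPM for *Ajuba*. For the targets they were 103.5 CPM for *Ctgf*, 282.6 CPM for *Cyr61* and 46.49 CPM for *Ankrd1*. A single cell held 86.4% of the reads for *Yap1*, 62.8% for *Ctgf*, 57.4% for *Ankrd1* and 57.1% for *Lats2*. In the kept type 1 cells *Tead1* was at 912 CPM, *Ajuba* at 148 CPM and *Ctgf* at 98.6 CPM, while *Yap1* was at 32.7 CPM, *Ankrd1* at 107.6 CPM and *Amotl2* at 447 CPM. The median mitochondrial share was 19.5% in the removed and 10.2% in the kept type 1 cells, with 316610 and 468718 median reads, and the part of either in these values was not tested.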

How the results depend on the processing

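With *Amot* counted, 2 members were at least 2-fold lower in type 1 than in rest cells. That number was 1 with all deposited cells, a *Sftpc* minimum of 4000 CPM, a library size without mitochondrial genes, thinning to 90000 reads or a rest without *Krt5* cells. It was 3 (*Yap1*, *Amot* and *Ctgf*) at a mitochondrial maximum of 0.10, and 0 in chip columns 11 to 20 and without the top cell of each class. *Ctgf* turned to a log2 ratio of 2.54 without the *Krt5* cells, an alternative chosen after seeing the data. The number lower than in type 2 cells was 0, and 1 (*Yap1*) at a mitochondrial maximum of 0.10 and in chip columns 1 to 10, and 1 (*Amot*) at the lower *Sftpc* minimum. The numbers of members higher in type 1 cells stayed within 1.5 times of 8 and 6 in the 17 alternatives run for each. The rank correlation of effectors and targets, 0.10, was 0.58 at a mitochondrial maximum of 0.10, -0.00906 with the 2 most distant cells by summed effectors left out, -0.0065 in the first 10 chip columns and 0.20 in the last 10. Without the cell with the most reads in each class, also chosen after seeing the data for the lists, *Map4k4* over the rest turned to a log2 ratio of 2.37. The share of all genes lower in type 1 than in rest cells was 21.1% among genes that averaged 50 CPM or more. Causes were not tested. No paired analysis was possible because all cells belong to 1 group of 1 mouse. Few reads stand behind *Amot* (1 read in type 1 cells) and behind the type 2 levels of *Tead1* (9), *Cyr61* (12) and *Ankrd1* (1), from 11 cells.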
